A study of Mus musculus with 24 samples.

Results

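The mRNAs described here encode the hnRNP proteins and the protein subunits of the spliceosomal snRNPs, in activated mouse B cells whose gene for Spt5 was deleted and in control cells. Members were all genes of the count table whose name, leaving any suffix aside, begins with Hnrnp, Hnrp, Snrp, Snrnp, Sf3a, Sf3b, U2af or Prpf. That rule, which uses names and no measured value, gave 62 of the 14106 genes in the table. They were 20 hnRNP genes, 18 snRNP genes named Snrp or Snrnp, and 24 genes of the U2 and tri-snRNP families named Sf3a, Sf3b, U2af or Prpf. All 62 passed the filter on low counts, which 12024 genes of the table passed. In all, 40 of the 62 passed the test between groups, beside 62.4% of tested genes.

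The hnRNP proteins bind nascent transcripts and influence how they are spliced, exported and decayed, and many of them recognise short sequence elements in introns or exons. The snRNPs are particles of a small nuclear RNA and proteins that make up the spliceosome. U1 recognises the 5′ splice site and U2 the branch point, which U2AF helps it to find, and the tri-snRNP of U4, U6 and U5 then joins to form the catalytic machine. Activated B lymphocytes also use regulated splicing and 3′ end choice, for instance when immunoglobulin heavy chain transcripts pass from the membrane to the secreted form.

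Spt5, encoded by Supt5 in the table, is a subunit of the elongation factor DSIF, which accompanies RNA polymerase II. Splenic B cells from mice of the genotype Supt5hFl/- Rosa26ERT2-cre/+, with a floxed and a null allele and a Cre recombinase that tamoxifen activates, are called Spt5-depleted here. WT cells were Rosa26ERT2-cre/+, carried no altered Supt5h allele, and received the same drug. Both groups were activated with IL4 and LPS for 28 h, were then given 2 µM 4-hydroxytamoxifen for 32 h, and were harvested at 60 h of activation. Because WT cells lack the null allele, its effect cannot be told apart from that of the induced deletion. One label has the cells as mature and another as immature. Nothing states that replicate libraries are from different animals, and the p-values then reflect only how libraries vary, which may be technical. Poly(A) RNA was sequenced from 3 WT and 3 Spt5-depleted libraries, and the comparison asks how each member's mRNA level differed between them.

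Library totals ran from 23340978 to 25649611 counts in WT and from 17306549 to 21441575 in Spt5-depleted cells, so the groups also differed in depth. Supt5 had 159.9, 159.6 and 192 CPM (the library's count scaled to a common total with TMM factors) across WT and 10.6, 9.18 and 13.6 CPM across depleted libraries. The groups did not overlap for Supt5, and its log2 fold change was -3.94 ± 0.14 (SE). Xist was at 468 to 915 CPM in WT and 1.00 to 1.73 CPM in depleted libraries. The Y-linked Ddx3y had 0 to 1 counts in WT and 704 to 1019 counts in depleted libraries. Presence of Y-linked RNA, and with it any difference in donor sex, cannot be told apart from genotype. Among 12024 tested genes, 31.8% were higher and 30.6% lower in depleted cells at an edgeR adjusted p under 0.05. With library totals alone in place of TMM the median log2 fold change of all tested genes moved from 0.005 to 0.16, and the calls went from 3823 higher and 3681 lower to 4962 and 2694. B cell markers such as Cd79a and Pax5 were expressed in both groups, and of 8 such markers 1 rose and 2 fell. Of 6 tested macrophage and monocyte markers 4 rose, with the sum of the 7 listed in the table at 23.7 to 32.3 CPM in WT and 28.1 to 63.0 CPM in depleted libraries. Of 3 tested dendritic cell markers 2 rose, Xcr1 from a mean of 0.881 to 5.98 CPM (log2 fold change 2.75) and Zbtb46 from 5.22 to 8.22 CPM (0.66), while Flt3, which makes up most of their sum, was at 86.7 and 82.1 CPM and did not pass. T and NK cell markers summed to 39.4 to 42.2 and 17.4 to 35.5 CPM, dendritic cell markers to 85.4 to 99.7 and 95.8 to 97.5 CPM, neutrophil markers to at most 1.00 and 3.93 CPM and erythroid markers to at most 0.295 and 0.563 CPM. Too low to be tested were C1qb, of macrophages, with means of 0.116 and 0.168 CPM, and Itgax, of dendritic cells, with 0.102 and 0.0733 CPM. The part of these markers in the results was not tested.

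The 20 hnRNP genes were mostly lower after depletion. At an adjusted p under 0.05, 18 of them fell and 0 rose, where 30.6% of all tested genes were called lower and 31.8% higher. At an unadjusted p under 0.05 and with DESeq2, 0 rose as well. The median log2 fold change of the 20 was -0.63, beside 0.005 for all tested genes, and single genes ran from -1.77 to 0.12. In 18 of them every depleted library lay below every WT library, which was so for 33.3% of tested genes, and no overlap in either direction was found for 67.5%. At least 2-fold, 5 fell and 0 rose, where 7.63% of tested genes fell and 9.87% rose that far. Summed over the 20 genes, the level was 6186, 5857 and 6273 CPM in WT and 3654, 3826 and 3768 CPM in depleted libraries. The group means of that sum were 6105 ± 219.6 and 3749 ± 87.5 CPM (SD, n = 3 each). These levels are relative to the other mRNAs of a library. In bulk RNA a smaller share of cells with these mRNAs, less of them per cell and more of other mRNAs cannot be told apart.

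**Figure D1:**
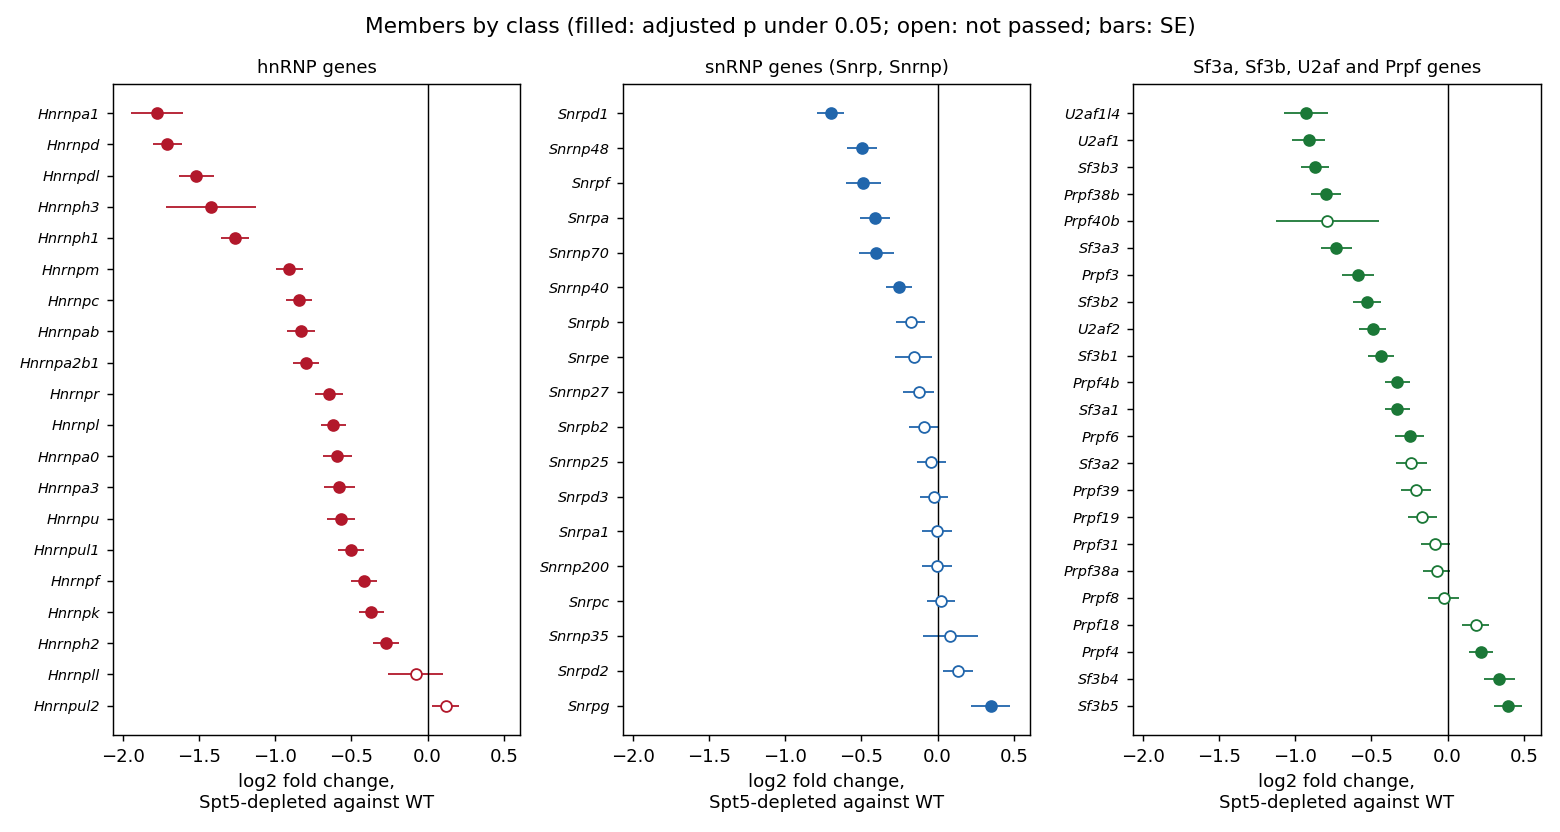
Log2 fold change of 61 of the 62 members, Spt5-depleted against WT, with its standard error as a bar, in 3 panels by class. Filled points passed an adjusted p under 0.05. In the hnRNP panel 18 of 20 points are filled and lie left of 0, while in the panel of Snrp and Snrnp genes 11 of 18 are open.

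The D family, hnRNP D and its paralog hnRNP DL, fell furthest among the rows whose names carry no overlap suffix. hnRNP D, also known as AUF1, binds AU-rich elements and takes part in mRNA decay. Hnrnpd had 308, 269 and 324 CPM in WT and 89.8, 88.6 and 97.6 CPM in depleted libraries. Its log2 fold change was -1.71 ± 0.09 (SE), which is 3.26-fold lower, with an adjusted p = 2.20e-09. Hnrnpdl stood at 160.2, 174 and 184 CPM in WT and 54.8, 54.1 and 72.1 CPM in depleted cells, a log2 fold change of -1.52 ± 0.11 (SE; adjusted p = 4.79e-08). The groups were far apart for both genes, and the third depleted library was the highest of its group for both. The count ratio of Hnrnpd to Hnrnpdl within a library, which no scaling affects, was 0.80 ± 0.16 in WT and 0.62 ± 0.16 in depleted libraries on the log2 scale (SD, n = 3 each), and the groups overlapped. In the RefSeq gene table the pair are near neighbours with 1 protein-coding gene between them.

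Upstream sequences from RefSeq (build GRCm38.p6, another build than that of the counts) are shown for the D family pair, which fell furthest among hnRNP genes with a single window and no suffix, and for Snrpg and Prpf4, the 2 risen members that have a window. Each is the 250 bases before the annotated start, 5′ to 3′. Capitals mark matches, on either strand, to 4 motifs. The CCAAT box was searched as CCAAT. The GC box was searched as GGGCGG. The E-box was searched as CACGTG. The ETS-type motif was searched as CCGGAAG. The windows are chr5:99978939-99979188, minus strand for Hnrnpd; chr5:100039223-100039472, minus strand for Hnrnpdl; chr6:86371290-86371539, plus strand for Snrpg and chr4:62408533-62408782, plus strand for Prpf4.
Hnrnpd: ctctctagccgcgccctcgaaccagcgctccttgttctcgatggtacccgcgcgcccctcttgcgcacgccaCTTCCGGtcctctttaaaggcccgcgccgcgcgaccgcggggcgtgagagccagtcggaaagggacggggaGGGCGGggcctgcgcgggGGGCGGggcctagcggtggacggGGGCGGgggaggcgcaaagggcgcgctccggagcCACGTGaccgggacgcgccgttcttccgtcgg
Hnrnpdl: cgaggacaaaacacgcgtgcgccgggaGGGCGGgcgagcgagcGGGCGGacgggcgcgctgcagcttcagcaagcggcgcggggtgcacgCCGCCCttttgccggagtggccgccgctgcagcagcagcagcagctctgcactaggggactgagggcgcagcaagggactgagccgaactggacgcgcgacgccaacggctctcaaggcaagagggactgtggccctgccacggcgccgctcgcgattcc
Snrpg: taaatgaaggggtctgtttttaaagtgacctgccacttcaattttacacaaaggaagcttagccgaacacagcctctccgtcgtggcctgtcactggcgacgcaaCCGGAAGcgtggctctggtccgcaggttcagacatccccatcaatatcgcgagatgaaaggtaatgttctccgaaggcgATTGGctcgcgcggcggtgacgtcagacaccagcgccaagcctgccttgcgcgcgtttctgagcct
Prpf4: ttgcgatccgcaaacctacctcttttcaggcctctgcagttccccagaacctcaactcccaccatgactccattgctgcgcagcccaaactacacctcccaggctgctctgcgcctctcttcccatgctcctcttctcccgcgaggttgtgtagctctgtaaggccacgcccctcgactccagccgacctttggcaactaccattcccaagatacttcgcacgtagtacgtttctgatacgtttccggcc
Hnrnpd and Hnrnpdl each held 3 GC boxes and no CCAAT, and Hnrnpd also held 1 E-box and 1 ETS-type match. Snrpg held 1 CCAAT, read on the other strand, and 1 ETS-type match, and in Prpf4 there was no match to the 4 motifs.

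Windows were at hand for 52 of the 62 members. CCAAT lay in a window of 13 of 18 hnRNP genes (72.2%), 4 of 15 Snrp and Snrnp genes (26.7%) and 9 of 19 genes of the U2 and tri-snRNP families (47.4%). It lay in 40.9% of the 8920 tested genes with a window and in 33.8% of all 32851 windows. GGGCGG was found in 14, 10 and 10 genes of the 3 classes, beside 63.9% of tested genes and 32.7% of windows. CCGGAAG was found in 2, 5 and 8 genes, beside 16.4% of tested genes and 6.91% of windows, and CACGTG in 3, 1 and 3 genes, beside 10.2% and 6.02%. A match in these letters is a description of the window and not a binding site, and 10 members had several windows, each of which could hold a match.

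Genes named Hnrnpa or Hnrnpab are grouped here, by name alone, as the A/B family, and all 5 of them fell. Of their proteins, hnRNP A1 and A2 are abundant and often favour exon skipping. Hnrnpa2b1 had 695, 712 and 778 CPM in WT and 416, 425 and 416 CPM in depleted libraries. Its log2 fold change was -0.80 ± 0.08 (SE; adjusted p = 1.35e-06), and the depleted libraries differed little among themselves. The row for Hnrnpa1 had 9.43, 12.4 and 14.0 CPM in WT and 3.18, 3.75 and 3.51 CPM in depleted libraries, from 224, 273 and 339 and from 57, 80 and 81 counts. At -1.77 ± 0.17 (SE; adjusted p = 5.44e-07) it was the largest fall among all members. Its name ends in a suffix, which may stand for an overlapping gene, and which part of the gene was counted is not given in the sources used here. Hnrnpa0, Hnrnpa3 and Hnrnpab had log2 fold changes of -0.59, -0.58 and -0.83, the last 2 with the same suffix. Genes of this family have processed pseudogenes, with which reads may be shared. Against Hnrnpa2b1 in the same library, Hnrnpa3 was higher by 0.23 on the log2 scale in depleted than in WT libraries, with no overlap, and Hnrnpa0 by 0.21, with overlap.

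Members of the F/H family, which bind G-rich elements, fell to different extents. Hnrnph1 went from 297 ± 10.4 to 124 ± 11.1 CPM (SD, n = 3 each), a log2 fold change of -1.26 ± 0.09 (SE; adjusted p = 2.73e-08). Hnrnph2, its close paralog on the X chromosome, went from 107 ± 6.62 to 88.6 ± 3.33 CPM (SD, n = 3 each), at -0.27 ± 0.09 (SE; adjusted p = 0.0115). Within a library the log2 ratio of Hnrnph1 to Hnrnph2 was 1.34, 1.51 and 1.57 in WT and 0.40, 0.47 and 0.57 in depleted cells. The ratio was thus lower in every depleted library than in every WT library, whatever the scaling. The call of Hnrnph2 was lost with library totals alone (adjusted p = 0.271) and without Spt5-depleted replicate 1 (adjusted p = 0.0636). As this gene is on the X chromosome, any part of donor sex in its change cannot be told apart from genotype. Hnrnpf had a log2 fold change of -0.42. The row for Hnrnph3, which carries the overlap suffix, had 6.74, 8.95 and 7.66 CPM in WT and 1.40, 2.86 and 4.28 CPM in depleted libraries (log2 fold change -1.42 ± 0.29 SE, adjusted p = 0.00155). Its depleted libraries differed about as widely as their own mean, from 25, 61 and 99 counts.

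**Figure D2:**
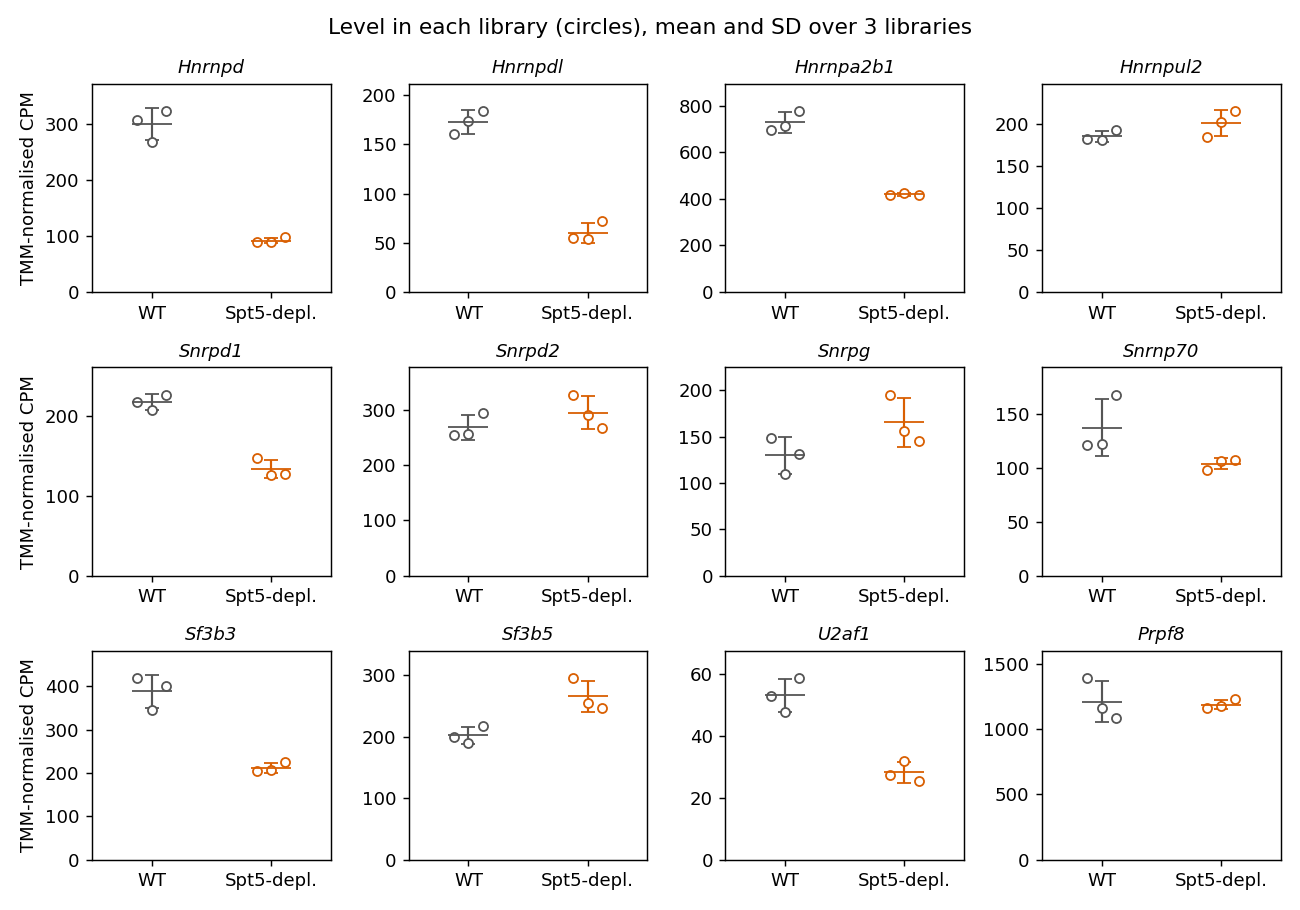
TMM-normalised CPM of 12 members in each library (circles), with the mean and SD of the 3 libraries of a group, on axes that start at 0. Hnrnpd, Hnrnpdl, Hnrnpa2b1, Snrpd1, Sf3b3 and U2af1 are lower in all depleted libraries, Sf3b5 is higher in all of them, and the groups overlap for Hnrnpul2, Snrpd2, Snrpg and Prpf8.

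Hnrnpc encodes the hnRNP C protein, which packages nascent RNA and binds uridine tracts. It had 368, 373 and 424 CPM in WT and 217, 219 and 215 CPM in depleted libraries (log2 fold change -0.84 ± 0.09 SE, adjusted p = 1.01e-06). Hnrnpm, a splicing regulator, and Hnrnpr, related to Syncrip, fell with log2 fold changes of -0.91 and -0.65. Hnrnpk, a poly(C)-binding protein with KH domains, was at 408, 385 and 370.5 CPM in WT and 291, 307 and 301 CPM in depleted libraries. Its fall was the smallest of the abundant hnRNP genes, above 300 CPM on average, at -0.37 ± 0.08 (SE; adjusted p = 0.00114), and its name carries the overlap suffix.

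The L family differed between its members. Hnrnpl, which binds CA-rich elements, had 609.8, 557 and 571 CPM in WT and 372, 367 and 393 CPM in depleted libraries (log2 fold change -0.62 ± 0.08 SE, adjusted p = 1.48e-05). Hnrnpll, a paralog known for its part in Ptprc splicing and in plasma cell differentiation, had 5.39, 7.45 and 5.27 CPM in WT and 6.64, 4.92 and 5.63 CPM in depleted libraries. The groups overlapped for Hnrnpll, and its log2 fold change was -0.08 with a 95% interval from -0.46 to 0.31 (adjusted p = 0.724), from 105 to 164 counts in a library. The log2 ratio of Hnrnpl to Hnrnpll was 6.60 ± 0.33 in WT and 6.05 ± 0.22 in depleted libraries (SD, n = 3 each), and the lowest WT value and the highest depleted value both rounded to 6.22.

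In the U family, whose members bind RNA and nuclear scaffold components, Hnrnpu and Hnrnpul1 fell and Hnrnpul2 did not pass. Hnrnpu had 727, 601 and 705 CPM in WT and 446, 446 and 477 CPM in depleted libraries (log2 fold change -0.57 ± 0.09 SE, adjusted p = 8.36e-05). Hnrnpul1 had a log2 fold change of -0.50. Hnrnpul2 had 182, 181 and 193 CPM in WT and 185, 203 and 216 CPM in depleted libraries, at 0.12 with a 95% interval from -0.07 to 0.30 (adjusted p = 0.247). The log2 ratio of Hnrnpu to Hnrnpul2 went from 1.87 ± 0.13 in WT to 1.18 ± 0.07 in depleted libraries (SD, n = 3 each) without overlap. With library totals alone Hnrnpul2 passed as higher (log2 fold change 0.28, adjusted p = 0.0142).

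Abundant genes of the table tended to be lower, so the hnRNP genes were set beside tested genes of like abundance. Above 300 CPM 6 of 6 hnRNP genes fell, beside 50.7% of 578 genes in that band, with medians of -0.71 and -0.25. From 100 to 300 CPM 8 of 9 fell, beside 37.1% of 1808 genes, with medians of -0.65 and -0.06. The 2 hnRNP genes from 30 to 100 CPM both fell, beside 30.9% of 3330 genes, and 2 of 3 below 10 CPM fell, beside 24.4% of 3866 genes. Of the Snrp and Snrnp genes, 0 of 1 fell above 300 CPM, 4 of 11 from 100 to 300, 0 of 3 from 30 to 100, 2 of 2 from 10 to 30 (beside 30.5% of genes there) and 0 of 1 below 10 CPM. Of the genes of the U2 and tri-snRNP families, 1 of 2 fell above 300 CPM, 5 of 12 from 100 to 300, 5 of 7 from 30 to 100, 1 of 2 from 10 to 30 and 0 of 1 below 10 CPM.

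**Figure D3:**
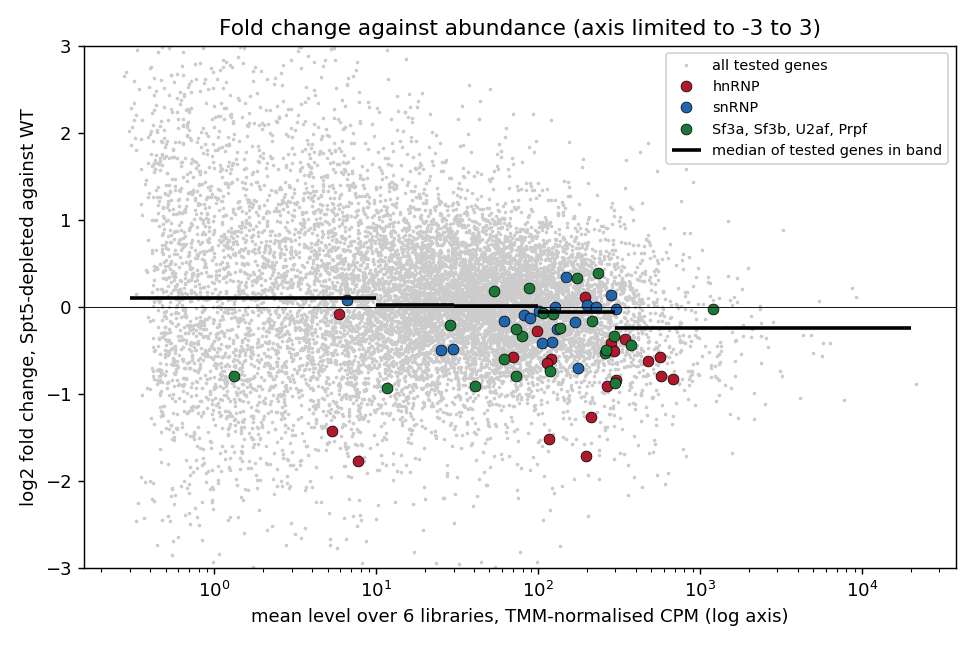
Log2 fold change, Spt5-depleted against WT, against the mean CPM over the 6 libraries on a log axis, for all tested genes (grey) and the 3 classes of members. Black lines give the median of tested genes in each abundance band, from 0.10 below 10 CPM to -0.25 above 300 CPM, and most hnRNP genes lie below them.

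The 18 Snrp and Snrnp genes changed less. Of these, 6 fell and 1 rose, with 11 not passed, beside 30.6% of tested genes called lower and 31.8% higher, and 0 changed 2-fold. Their median log2 fold change was -0.11, and every depleted library lay below every WT library for 6 genes, beside 33.3% of tested genes. Summed, the 18 genes had 2508, 2269.5 and 2613 CPM in WT and 2434, 2283 and 2161 CPM in depleted libraries, which overlapped. The count of all hnRNP genes over that of these 18 genes, a ratio within each library that also depends on gene lengths, was 2.48 ± 0.0911 in WT and 1.64 ± 0.125 in depleted libraries (SD, n = 3 each), without overlap. That ratio was therefore lower in every depleted library whatever the scaling, and the difference between the classes has no test here. With library totals alone the median of the Snrp and Snrnp genes was 0.05, beside 0.16 for all tested genes.

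Of the Sm proteins, which form the ring around U1, U2, U4 and U5 RNA, 7 genes were measured, and they did not move together. Snrpd1, for SmD1, had 218, 208 and 227 CPM in WT and 147, 126 and 128 CPM in depleted libraries. It fell without overlap, with a log2 fold change of -0.70 ± 0.09 (SE; adjusted p = 8.56e-06), the largest among Snrp and Snrnp genes. Snrpf, for SmF, had 35.9, 33.4 and 35.1 CPM in WT and 23.2, 29.7 and 21.5 CPM in depleted libraries (log2 fold change -0.49 ± 0.12 SE, adjusted p = 0.00213), on a row with the overlap suffix. Snrpg, for SmG, had 148, 109 and 132 CPM in WT and 195, 156 and 145 CPM in depleted libraries. The groups overlapped for Snrpg, and its log2 fold change of 0.35 ± 0.13 (SE) had an adjusted p = 0.0307. That call was lost without WT replicate 2 (adjusted p = 0.118), without WT replicate 3 (adjusted p = 0.107) and without Spt5-depleted replicate 1 (adjusted p = 0.157). Snrpb, for SmB, had 172, 162 and 203 CPM in WT and 163, 163 and 149 CPM in depleted libraries (log2 fold change -0.18, 95% interval from -0.38 to 0.03, adjusted p = 0.124), and it passed as lower without WT replicate 2 (adjusted p = 0.0468). Snrpd2, Snrpd3 and Snrpe stood at 0.13, -0.02 and -0.16 and did not pass, and Snrpd2 passed as higher with library totals alone (log2 fold change 0.29, adjusted p = 0.0128).

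Since SmD1 and SmD2 bind each other in the ring, as do SmF and SmG with SmE, their genes were also compared within each library, as pairs picked after their values were seen. The log2 ratio of Snrpd1 to Snrpd2 was -0.30 ± 0.08 in WT and -1.14 ± 0.07 in depleted libraries (SD, n = 3 each). For Snrpf against Snrpg it was -1.89 ± 0.17 and -2.74 ± 0.34 (SD, n = 3 each). Neither ratio overlapped between the groups. Short genes of the Sm family have processed pseudogenes, so reads may be shared with those copies.

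Genes for proteins particular to U1 fell in part. Snrnp70, for the U1-70K protein, had 122, 123 and 168 CPM in WT and 98.7, 106 and 107 CPM in depleted libraries, with the third WT library well above the others. Its log2 fold change was -0.40 ± 0.12 (SE; adjusted p = 0.00843), a call lost with library totals alone (adjusted p = 0.0924). Snrpa, for the A protein of U1, had 116, 107 and 137 CPM in WT and 93.7, 85.7 and 90.9 CPM in depleted libraries (log2 fold change -0.41 ± 0.10 SE, adjusted p = 0.00199), on a row with the overlap suffix. Snrpc, for its C protein, stood at 0.02 and did not pass. Snrpa1 and Snrpb2, which encode the A′ and B″ proteins of U2, had log2 fold changes of -0.0032 and -0.09 and did not pass.

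Among Snrnp-named genes for U5 and tri-snRNP proteins, only Snrnp40 passed (log2 fold change -0.25 ± 0.08 SE, adjusted p = 0.0153). That call was lost with library totals alone (adjusted p = 0.339) and without Spt5-depleted replicate 2 (adjusted p = 0.0521) or 3 (adjusted p = 0.0510). Snrnp200, the Brr2 helicase that unwinds U4 from U6, had 255, 196 and 227 CPM in WT and 213, 228 and 237 CPM in depleted libraries. The groups overlapped for it throughout (log2 fold change -0.0026, 95% interval from -0.21 to 0.21, adjusted p = 0.985). Snrnp27 stood at -0.12 and did not pass. Of the genes for proteins of the minor U11/U12 particle, Snrnp48 fell. It had 27.9, 31.1 and 28.6 CPM in WT and 21.9, 19.1 and 21.2 CPM in depleted libraries. Its log2 fold change was -0.50 ± 0.10 (SE; adjusted p = 0.000595). Snrnp25 and Snrnp35 had log2 fold changes of -0.04 and 0.08 and did not pass.

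Of the 24 genes named Sf3a, Sf3b, U2af or Prpf, 12 fell and 3 rose, with 9 not passed, beside 30.6% of tested genes called lower and 31.8% higher. Their median log2 fold change was -0.29, with a range from -0.93 to 0.39, and 0 of them changed 2-fold. In 15 every depleted library lay below every WT library and in 4 every one lay above, beside 33.3% and 34.2% of tested genes. With library totals alone 9 fell and 4 rose, and the median was -0.13. Of the 12024 tested genes 2694 then fell and 4962 rose, with a median of 0.16. The sum over the 24 genes was 4986, 4514 and 4891 CPM in WT and 4095, 4093 and 4159 CPM in depleted libraries, without overlap.

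U2AF, the heterodimer that reads the polypyrimidine tract and the AG of the 3′ splice site, fell in all its genes. U2af1, the small subunit, had 52.9, 47.8 and 58.5 CPM in WT and 27.4, 32.0 and 25.3 CPM in depleted libraries. Its log2 fold change was -0.91 ± 0.11 (SE; adjusted p = 5.28e-06). U2af1l4, a paralog of the small subunit, had 12.5, 15.3 and 18.4 CPM in WT and 7.93, 8.15 and 8.14 CPM in depleted libraries, at -0.93 ± 0.14 (SE; adjusted p = 5.62e-05). U2af2, the large subunit, had 317, 277 and 326 CPM in WT and 217.5, 218 and 218 CPM in depleted libraries, at -0.49 ± 0.09 (SE; adjusted p = 0.000178). The groups stood apart for each of the 3 genes. Within a library the log2 ratio of U2af1 to U2af2 was -2.53 ± 0.05 in WT and -2.96 ± 0.17 in depleted cells (SD, n = 3 each), without overlap. That of U2af1 to U2af1l4 was 1.80 ± 0.25 and 1.80 ± 0.17 (SD, n = 3 each).

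SF3b, the part of U2 that clamps the branch point, went both ways among the 5 genes named for it. Sf3b3 had 418, 344 and 401 CPM in WT and 203, 208 and 225 CPM in depleted libraries (log2 fold change -0.87 ± 0.09 SE, adjusted p = 1.58e-06). Sf3b1, the large scaffold subunit, had 444, 427 and 413 CPM in WT and 300.2, 317 and 331 CPM in depleted libraries (log2 fold change -0.44 ± 0.08 SE, adjusted p = 0.000327). Sf3b2 fell as well, at -0.53. Sf3b5 and Sf3b4 rose. Sf3b5 had 199.6, 189 and 216 CPM in WT and 294, 255 and 246 CPM in depleted libraries (log2 fold change 0.39 ± 0.09 SE, adjusted p = 0.00187). Sf3b4 had 150.1, 135 and 172 CPM in WT and 209, 191 and 179 CPM in depleted libraries (log2 fold change 0.34 ± 0.10 SE, adjusted p = 0.00853). The log2 ratio of Sf3b3 to Sf3b5, a pair picked after its values were seen, was 1.07, 0.87 and 0.89 in WT and -0.53, -0.30 and -0.13 in depleted libraries, and so was lower in each of the latter. A further subunit, Sf3b6, stands in the table under its older name 0610009D07Rik, which the naming rule does not reach. It had a log2 fold change of 0.22 ± 0.10 (SE; adjusted p = 0.067) and did not pass. Phf5a, also a small subunit of SF3b and not reached by the rule, had overlapping groups and did not pass either (log2 fold change 0.12, adjusted p = 0.295).

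**Figure D4:**
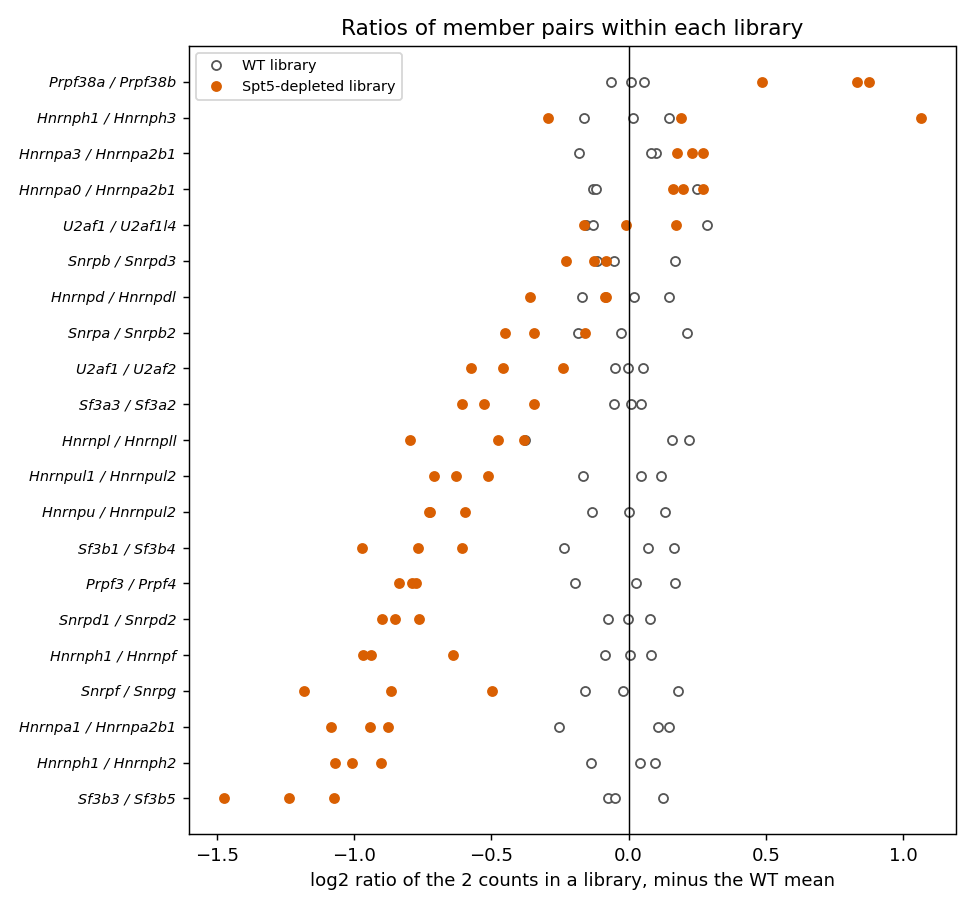
Log2 ratio of the counts of 21 pairs of members within each library, minus the mean of the WT libraries, so that 0 is the WT mean. Open circles are WT and filled circles Spt5-depleted libraries. Sf3b3 over Sf3b5, Hnrnph1 over Hnrnph2 and Snrpd1 over Snrpd2 are lower in all depleted libraries, Prpf38a over Prpf38b is higher in all of them, and U2af1 over U2af1l4 and Hnrnpd over Hnrnpdl overlap.

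Genes of SF3a, the other protein complex of U2, were lower. Sf3a3 had 132, 137 and 171 CPM in WT and 85.3, 92.5 and 87.5 CPM in depleted libraries (log2 fold change -0.73, adjusted p = 2.06e-05). Sf3a1 had a log2 fold change of -0.33, a call lost with library totals alone (adjusted p = 0.0909). Sf3a2 stood at -0.24 with an adjusted p = 0.0507, just outside the threshold, while the authors' deposited table gives it an adjusted p = 0.0446. It passed with DESeq2 (adjusted p = 0.0423) and without WT replicate 1 (adjusted p = 0.0282) or 2 (adjusted p = 0.0224). For the other 61 members that table is on the same side of the threshold, and it gives the same sign for all 62.

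Genes for proteins of U4/U6 and the tri-snRNP differed from one another. Prpf8, the U5 protein at the catalytic centre, had 1389, 1161 and 1083 CPM in WT and 1164, 1174 and 1228 CPM in depleted libraries. The groups overlapped for it, and its log2 fold change was -0.03 with a 95% interval from -0.24 to 0.18 (adjusted p = 0.827). Prpf3, of U4/U6, had 63.3, 73.9 and 85.3 CPM in WT and 49.5, 47.7 and 50.5 CPM in depleted libraries (log2 fold change -0.59, adjusted p = 0.000194). Prpf4, which binds Prpf3, had 80.3, 80.4 and 84.1 CPM in WT and 93.7, 94.3 and 96.6 CPM in depleted libraries. It rose by 0.22 ± 0.08 (SE) on the log2 scale with an adjusted p = 0.0285, a call lost without 5 of the 6 libraries in turn, all but WT replicate 3, with adjusted p from 0.0566 to 0.0763. The log2 ratio of Prpf3 to Prpf4, again picked after the values were seen, was -0.15 ± 0.18 in WT and -0.95 ± 0.03 in depleted libraries (SD, n = 3 each). Prpf6 fell by 0.25 on the log2 scale (adjusted p = 0.0302), which was lost with library totals alone (adjusted p = 0.414), without WT replicate 3 (adjusted p = 0.0915) and without each depleted replicate in turn (adjusted p = 0.0733, 0.0536 and 0.112). Prpf31 stood at -0.08 and did not pass.

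Among factors of activation and later steps, Prpf38b fell furthest. It had 89.1, 89.3 and 101 CPM in WT and 50.7, 50.1 and 59.7 CPM in depleted libraries (log2 fold change -0.80 ± 0.10 SE, adjusted p = 5.35e-06). Its namesake Prpf38a stood at -0.07 and did not pass, and the log2 ratio of Prpf38a to Prpf38b went from 0.24 ± 0.06 to 0.97 ± 0.21 (SD, n = 3 each) without overlap. Prpf4b, a kinase that acts on the spliceosome, fell by 0.33 on the log2 scale (adjusted p = 0.00281), lost with library totals alone (adjusted p = 0.0932). Prpf19, the ubiquitin ligase of the Prp19 complex, had 214, 206 and 259 CPM in WT and 197, 205 and 203.5 CPM in depleted libraries. All depleted libraries lay below all WT libraries, by little, and the test did not pass (log2 fold change -0.16, adjusted p = 0.145). Prpf18, which acts in the second step of splicing, stood at 0.19 (adjusted p = 0.0794) and passed as higher with library totals alone (adjusted p = 0.00419) and without WT replicate 1 (adjusted p = 0.0441). The U1-associated Prpf39 and Prpf40b had log2 fold changes of -0.21 and -0.79 and did not pass, Prpf40b from only 14 to 51 counts in a library. Without Spt5-depleted replicate 3, Prpf39 (adjusted p = 0.0481) and Prpf40b (adjusted p = 0.0211) passed as lower, and Prpf40b did so without WT replicate 1 as well (adjusted p = 0.0205).

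Other splicing genes that no prefix covers both fell and rose. Beside 30.6% of tested genes called lower and 31.8% higher, 6 of 9 genes for hnRNP proteins that carry other names fell and 0 rose. Their median log2 fold change was -0.63, with 0 higher by DESeq2 and 0 higher at an unadjusted p under 0.05. Among them Rbmx, hnRNP G, went from 104 ± 0.798 to 48.5 ± 2.43 CPM, and Ptbp1, hnRNP I, from 1083.5 ± 43.4 to 613 ± 21.8 CPM (SD, n = 3 each). The row for Ptbp1 carries the overlap suffix. Of 9 LSm genes, whose proteins bind U6 RNA or act in decay and histone mRNA processing, 3 fell, including Lsm11 (-0.90) and Lsm7 (-0.73), and 3 rose, including Lsm1 (0.53) and Lsm10 (0.45), with a median of -0.08. Of 16 genes of snRNP assembly and transport 8 fell and 3 rose (median -0.21), and 1 rose without Spt5-depleted replicate 1 or 2. Prmt5, which methylates Sm proteins, had a log2 fold change of -0.98, Coil, the coilin of Cajal bodies, -0.50, Gemin6, of the SMN complex, 0.34 and Tgs1, which matures the snRNA cap, 0.27. Of 44 other spliceosome genes 22 fell and 8 rose (median -0.22). Among falls the smallest p-values belonged to the helicases Ddx39b (-1.67, on a row with the overlap suffix) and Dhx15 (-1.03). Among rises they belonged to Zcrb1 (0.46), of the minor spliceosome, and Xab2 (0.37). With library totals alone 14 of those 44 fell and 13 rose, and 4 of the 16 assembly genes fell and 4 rose. Under that scaling 2694 of the 12024 tested genes fell and 4962 rose, with a median log2 fold change of 0.16.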

How the data were processed

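Counts from 6 poly(A) RNA libraries were used, and the 18 samples of other assays were not analysed here. Per the labels' protocols, Trizol RNA went into the SENSE kit of Lexogen. The submitters' processing notes name build mm9 and the tools featureCounts 1.5.0-p1, TopHat, Bowtie2 2.1.0, cutadapt 1.10 and DESeq2 1.10.1. How shared reads, strand and annotation were handled is not given in the sources used here. A deposited file holds unnormalised read counts for every gene with a sum of at least 10. The authors' log2 values (a fold change per gene) and the authors' adjusted p-values come with it and were used only where that table is named. Columns named KO were taken as Spt5-depleted libraries of the same number.

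edgeR 4.0.16 in R 4.3.3 was run with filterByExpr, TMM factors and a robust, two-sided quasi-likelihood F test, whose p-values were adjusted by Benjamini-Hochberg over 12024 genes. Standard errors were derived from that F. The common biological coefficient of variation came to 0.098, and the depth was 17306549 to 25649611 counts. The code was tested on simulated data. Replicates were no duplicates (chi-square per degree of freedom 6.13 to 31.2). Members, lists, pairs and tests were chosen with earlier results of these data known. Values in every library are given, by rule, for the 4 risen and 4 fallen members per class, at most, with the largest change at a mean of 5 CPM or more. They are also given for a fixed set of well-known members, of which Snrpn is not analysed here. Hnrnph1, Hnrnph2, Prpf3 and Sf3a3 were added after their values were seen. Hnrnpul2 is given outside that rule too, as is Snrpd2 in a figure. Up to 2 risen and 2 fallen genes of each other list, by p, are named. For 1 member, counted in its class, values are not reported here. Alternatives were 3 other scalings, 2 other filters, DESeq2 1.42.0, limma-voom (limma 3.58.1), a replicate block, stricter thresholds, suffixed names left out, and each library left out.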

Additional observations from a re-analysis of the deposited data

How the results depend on the processing

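All 18 falls of hnRNP genes but that of Hnrnph2 were kept under each of 14 alternatives (scaling, filter, tool, block and leaving out a library), as were 4 of 7 calls of Snrp and Snrnp genes (not Snrnp40, Snrnp70 or Snrpg) and 11 of 15 of the U2 and tri-snRNP families (not Prpf4, Prpf4b, Prpf6 or Sf3a1). Under library totals alone, 1 hnRNP gene and 2 Snrp or Snrnp genes were higher, and 25 genes of the other splicing lists were lower, in place of 0, 1 and 39. Of all tested genes 4962 were then higher and 2694 lower, in place of 3823 and 3681. At an adjusted p under 0.01, 0 Snrp or Snrnp genes were higher. Leaving out each library in turn gave 0 to 1. At least 2-fold, 1187 genes were higher and 917 lower, among them 0 and 5 hnRNP genes, 0 and 0 Snrp or Snrnp genes, 0 and 0 genes of the U2 and tri-snRNP families and 0 and 4 of the other lists. Leaving out names with a suffix took away 5 hnRNP genes, 2 Snrp or Snrnp genes and 1 of the U2 and tri-snRNP families. Of the rest, 13, 4 and 12 fell and 0, 1 and 3 rose. Among all tested genes without a suffix 3070 were lower and 3254 higher. How many genes those are is not given here, so these counts have no share beside them. Hnrnpa1 and Hnrnph3, which both fell at least 2-fold, were among those left out.

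Whether the replicate numbers pair the samples is not stated in the labels. Numbers at the end of the sample titles are consecutive within each same-numbered WT and depleted pair, and their meaning is not given. Correlations of deviations were 0.038, -0.040 and -0.005 for same-numbered libraries and ran from -0.075 to 0.0875 for the others. Deviations from means of 3 libraries cannot decide whether the samples were paired, so the block is given as an alternative. With the replicate block 3755 genes were higher and 3614 lower, hnRNP and Snrp or Snrnp counts stayed at 0 and 18 and at 1 and 6, and those of the U2 and tri-snRNP families came to 2 and 13, with Prpf4 at an adjusted p = 0.0623 and Prpf40b at 0.0404.

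Log2 fold changes that turned sign all belonged to members that had not passed. With library totals alone they were 0.082 for Hnrnpll, 0.14 for Snrpd3, 0.0011 for Snrpe, 0.12 for Snrnp25, 0.15 for Snrpa1, 0.068 for Snrpb2, 0.16 for Snrnp200, 0.034 for Snrnp27, 0.086 for Prpf38a, 0.079 for Prpf31 and 0.13 for Prpf8. For Snrpa1 and Snrnp200 they were 0.0099 and 0.011 with upper-quartile factors, 0.0093 and 0.010 with genes averaging 5 CPM or more, 0.0017 and 0.0044 with limma-voom, 0.0021 and 0.0044 with the replicate block. Without 1 library the values ran from -0.19 to 0.094 for Hnrnpll, -0.085 to 0.054 for Snrpd3, -0.042 to 0.11 for Snrpc, -0.13 to 0.017 for Snrnp25, -0.10 to 0.27 for Snrnp35, -0.10 to 0.071 for Snrpa1, -0.10 to 0.088 for Snrnp200 and -0.11 to 0.078 for Prpf8. With library totals alone the median log2 fold change of all tested genes moved as well, from 0.005 to 0.16. The cause of the turns was not tested. Counts of 14 to 339 in a library limit Hnrnpa1, Hnrnph3, Hnrnpll, Snrnp35 and Prpf40b.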
